A study of Xenopus laevis with 3 samples.

Results

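The extracellular matrix and its receptors were described here through the collagen, laminin, fibrillin, fibronectin, fibulin, nidogen, thrombospondin, lysyl oxidase-like and integrin genes of the testis of Xenopus laevis, the African clawed frog. Members were chosen by gene symbol alone, and 140 of 34694 gene rows matched, from 86 genes. Poly-A RNA of whole testis was sequenced from untreated males of outcrossed laboratory stock, in 3 libraries that form 1 group with no control and no second condition. The labels call the cell type mixed testis, give each library its own processing date, and do not state that the males were separate animals, so any p-value measures only the spread between these libraries. The libraries are named replicates 1, 2 and 3, which is also the order of their processing dates. The study's title concerns a sperm phospholipase, and the matrix genes are measured in the same libraries.

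As background, the seminiferous tubule or cyst of a vertebrate testis is enclosed by a basement membrane, a thin sheet in which a laminin network and a type IV collagen network are linked by nidogen. Outside it lie fibrillar collagens, microfibrils built of fibrillin, and peritubular and interstitial cells that make much of this material in mammals. Cells grip the matrix through integrins, heterodimers of an alpha and a beta subunit, where the alpha subunit largely sets which ligand is bound. Xenopus laevis is allotetraploid, so that many genes have a copy on an L and another on an S chromosome, called homeologs and written with .L and .S.

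Members were mostly present at low levels. Of the 140 rows, 127 (90.7%) were detected, meaning at least 0.5 CPM (counts scaled to library size) and over 3 counts in all 3 libraries, against 66.7% of all rows and 81.6% of rows with a gene name. No row was at 0 counts in all libraries. The median of the detected members was 2.68 TPM (counts scaled by deposited gene length and library), against 9.72 TPM for all detected rows, and 21 members lay above 9.72 TPM. A total of 20 members exceeded 10 TPM, 79 lay between 1 and 10 TPM, and 41 were under 1 TPM. Together the members summed to 852, 706 and 829 TPM in replicates 1, 2 and 3, and held 0.291%, 0.237% and 0.279% of the counts. In a bulk sample, fewer cells of a type and less RNA per cell cannot be told apart.

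The libraries held 61212304 to 70580016 counts, so that 3 counts, the limit used for a count of 0, correspond to 0.0398 to 0.0501 CPM; such limits cover counting error only. Markers of the labelled tissue were present. All 9 rows of the spermatid list and all 15 of the Sertoli list were detected, with sums of 2255 ± 290.3 and 1077 ± 209 TPM (SD, n = 3). Meiosis markers summed to 834 ± 93.7 and spermatogonial markers to 1738 ± 170 TPM, with all 6 and all 5 rows detected. Lists for other tissues were lower than these, with 175 ± 36.8 TPM for skeletal muscle, 14.1 ± 4.31 for liver, 15.1 ± 2.27 for ovary and 2.66 ± 0.582 for epididymis or kidney. Their rows numbered 4, 3, 5 and 1 in that order, and a sum depends on the number of rows. The fibroblast and endothelial lists, at 20.2 ± 7.08 and 45.5 ± 5.79 TPM, also lay below skeletal muscle. Erythrocyte markers summed to 105 ± 38.3 TPM.

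**Figure D1:**
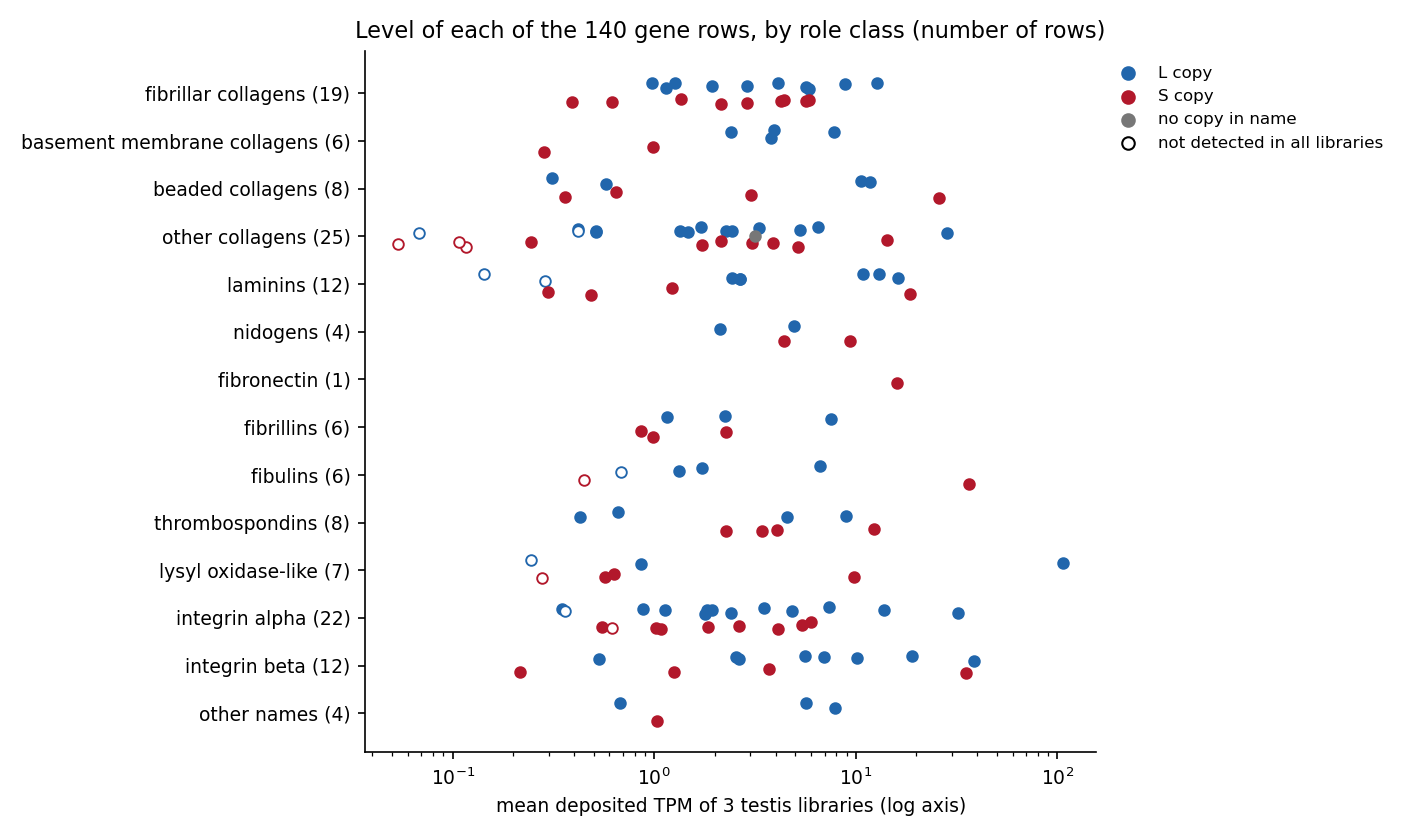
Mean deposited TPM of each of the 140 member rows (log axis, mean of 3 testis libraries) by role class, with L copies in blue, S copies in red, and open circles for the 13 rows not detected in all libraries. The highest point is loxl1.L at 107 TPM, and most members sit between 1 and 10 TPM.

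Among the fibrillar collagens, whose triple helices assemble into the tensile fibres of connective tissue, the leading genes were the type I chains. All 19 rows of 10 genes were detected, and the class summed to 62.6, 66.3 and 90.4 TPM in replicates 1, 2 and 3. The row col1a2.L, the alpha 2 chain of type I collagen, stood at 7.48, 10.3 and 20.5 TPM. Its partner alpha 1 chain, col1a1.L, was at 5.92, 7.25 and 13.4 TPM. In both rows replicate 3 was the high library and replicate 1 the low one. The copy col1a1.S ran the same way, at 2.42, 4.17 and 10.3 TPM. The copy col1a2.S ran the other way, at 6.04, 3.96 and 2.80 TPM. With L and S summed, col1a2 held 23.0%, col1a1 18.9% and col3a1, the type III collagen of pliable tissue, 16.2% of the class. The copies col3a1.L and col3a1.S had nearly equal means, 5.87 ± 2.84 and 5.88 ± 1.25 TPM (SD, n = 3). The type V collagen chain col5a1.L, known to take part in starting fibrils, followed at 5.68 ± 0.813 TPM. The lowest row was a copy of the cartilage collagen, col2a1.S at 0.392 ± 0.126 TPM, and col2a1.L was at 1.15 ± 0.929 TPM.

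The summed TPM of basement membrane collagen was lower than that of fibrillar collagen, from 6 rows against 19. The median row was at 3.12 TPM, against 2.88 TPM for fibrillar collagen. Between libraries the sum ranged 1.13 fold, against 1.44 fold. The 6 rows of type IV collagen summed to 20.5, 18.1 and 19.1 TPM. The alpha 1 chain col4a1.L led at 8.28, 7.67 and 7.48 TPM, which is 40.6% of the class. It was followed by col4a5.L at 3.93 ± 0.136, col4a2.L at 3.82 ± 0.583, col4a6.L at 2.41 ± 0.276 and col4a5.S at 0.986 ± 0.284 TPM (SD, n = 3). None of the 6 rows differed by 2 fold between libraries on CPM, against 16.5% of all detected rows. No row carries the symbol col4a3 or col4a4, and these genes were not analysed here.

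Among the rows of type VI collagen, which forms beaded filaments next to basement membranes, those of col6a1 and col6a2 led. The row col6a1.L had 7.41, 10.6 and 17.5 TPM and col6a1.S 1.63, 2.58 and 4.84 TPM. Its partner had 8.28, 9.92 and 13.8 TPM for col6a2.L and 20.9, 25.1 and 31.4 TPM for col6a2.S. All 4 copies were highest in replicate 3 and lowest in replicate 1. The gene col6a2 held 69.1% of the class, whereas the copies of col6a5 and col6a6 were all below 1 TPM on average. The row col6a5.S reached 0.648 ± 0.117 TPM. No row carries the symbol col6a3, and this gene was not analysed here.

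Of the other collagens, col18a1 was by far the most abundant, with 47.7% of the summed TPM of 25 rows. It encodes a collagen of the basement membrane zone that carries heparan sulfate and whose end fragment is endostatin. The row col18a1.L stood at 33.0, 22.0 and 30.3 TPM and col18a1.S at 19.8, 10.2 and 12.98 TPM, with no overlap between the copies. Type IX collagen, which coats fibrils in cartilage, came next with col9a1.L at 6.51 ± 1.07 and col9a2.L at 5.31 ± 1.77 TPM (SD, n = 3). The network-forming col8a2.S had 8.91, 1.88 and 4.69 TPM, high in replicate 1. The detected rows below these ranged from 0.244 TPM for col17a1.S to 3.89 TPM for col9a2.S. Of the 25 rows, 5 were not detected in all libraries, namely col8a2.L, col8a1.S, col21a1.S, col10a1.L and col14a1.S.

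Laminins were led by lamc1, the gamma chain shared by most laminin trimers. Its copies stood at 15.6, 12.05 and 11.7 TPM for lamc1.L and 20.6, 16.5 and 18.5 TPM for lamc1.S, together 46.7% of the laminin sum. Of the alpha chains, which hold the cell-binding end of the trimer, lama4.L was at 21.8, 12.01 and 14.9 TPM. The broadly expressed lama5.L was at 19.0, 7.09 and 6.66 TPM, with replicate 1 far above the other pair. The main beta chain by level, lamb1.L, was at 2.68 ± 0.0466 TPM (SD, n = 3), nearly the same in all 3 libraries. The other detected chains were lama3.L at 2.68, lamb2.L at 2.44, lamb1.S at 1.23, lamb3.S at 0.486 and lamb2.S at 0.299 TPM on average. The row lamb4.L was not detected in all libraries, and no row carries the symbol lama1, lama2 or lamc3, which were not analysed here.

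The nidogens, which bridge the laminin and collagen IV networks, split by library. The row nid1.L had 1.48, 2.20 and 2.68 TPM and nid1.S 2.62, 8.21 and 17.2 TPM in replicates 1, 2 and 3. By contrast, nid2.L had 8.21, 3.21 and 3.37 TPM and nid2.S 7.17, 3.16 and 2.81 TPM. Both nid1 copies were therefore lowest in replicate 1, the library in which both nid2 copies were highest.

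Among the other glycoproteins, fibronectin, a matrix protein bound by integrins through its RGD motif, was represented by the single row fn1.S at 18.7, 14.4 and 14.8 TPM. The fibrillins, the building blocks of microfibrils, were led by fbn1, with fbn1.L at 7.49 ± 0.472 and fbn1.S at 2.28 ± 0.109 TPM (SD, n = 3). The rows fbn2.L at 2.25 ± 0.869, fbn3.L at 1.16 ± 0.333 and fbn3.S at 0.985 ± 0.0411 TPM followed. The elastic fibre protein fibulin 5 was present mainly as fbln5.S, at 46.4, 16.5 and 46.8 TPM, with replicate 2 the low library. The other fibulins detected in all libraries were fbln1.L at 6.66 ± 1.56, fbln7.L at 1.73 ± 1.15 and fbln5.L at 1.33 ± 1.04 TPM. The rows fbln2.L and fbln7.S were not detected in all libraries.

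Thrombospondins, secreted glycoproteins that bind matrix and cell surface receptors, summed to 36.5 ± 2.09 TPM over 8 detected rows (SD, n = 3). The copies of thbs1 had 4.54 ± 2.87 TPM for thbs1.L and 12.3 ± 1.34 TPM for thbs1.S, and those of thbs4 had 8.90 ± 1.23 TPM for thbs4.L and 3.42 ± 2.97 TPM for thbs4.S. The row thbs3.S was at 4.04 ± 1.41 TPM, and the other 3 rows lay between 0.427 TPM for thbs2.L and 2.28 TPM for thbs2.S. The row thbs1.L is deposited with a length of 1466 bases against 3531 for thbs1.S, so its TPM rests on a much shorter gene model.

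The most abundant member was an enzyme and not a structural protein. Lysyl oxidase-like 1, which oxidises lysines of elastin and collagen so that they can cross-link and is known in mice for elastic fibre upkeep, had 102, 116 and 102 TPM for loxl1.L and 12.5, 9.15 and 7.68 TPM for loxl1.S. The L copy ranked 1580 of all 34694 rows by mean TPM. The loxl1 gene held 97.8% of the class, and loxl2.L at 0.860 ± 0.0477, loxl4.S at 0.630 ± 0.227 and loxl3.S at 0.571 ± 0.363 TPM were each under 1 TPM (SD, n = 3). The rows loxl2.S and loxl4.L were not detected in all libraries.

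Among the receptors, the beta 1 subunit gene itgb1 held more than the other 7 beta genes together. Its copies had 46.9, 30.9 and 38.6 TPM for itgb1.L and 38.6, 29.7 and 37.5 TPM for itgb1.S, 57.2%, 59.4% and 59.3% of all beta subunit TPM in the 3 libraries. The epithelial partner of alpha V, itgb6.L, followed at 23.96, 16.4 and 16.6 TPM. The leukocyte subunit itgb2.L was at 10.1 ± 1.70, itgb5.L at 6.98 ± 2.01 and the hemidesmosome subunit itgb4.L at 5.599 ± 1.17 TPM (SD, n = 3). All 12 beta rows were detected, and 9 of them were lowest in replicate 2 on CPM. Of all members 37.0%, and of all detected rows 37.8%, were lowest there. The other 6 rows ranged from 0.217 TPM for itgb4.S to 3.72 TPM for itgb5.S.

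Alpha subunits were led by itgav.L, which pairs with several beta chains and binds RGD ligands such as fibronectin, at 41.2, 29.4 and 26.01 TPM, or 33.5% of the class. The row itga8.L, another RGD-binding subunit and a partner of beta 1, was at 13.4, 10.8 and 17.1 TPM. The laminin-binding alpha 6 was near equal in its copies, itga6.L at 7.38 ± 1.24 and itga6.S at 6.01 ± 1.88 TPM (SD, n = 3), and the laminin-binding itga3.S was at 5.38 ± 1.19 TPM. Grouped by textbook ligand, a grouping added after the values were seen, RGD-binding alpha genes summed to 60.5 ± 9.49 TPM and laminin-binding ones to 26.5 ± 8.31 TPM. The collagen-binding genes itga1, itga2, itga10 and itga11 reached 4.71 ± 1.11 TPM and the remaining itga4, itga9 and itgae 3.96 ± 0.516 TPM. The order of the first 3 groups was the same in all 3 libraries, with 71.4, 54.4 and 55.7 TPM for RGD-binding, 35.9, 20.5 and 23.0 for laminin-binding and 3.57, 5.79 and 4.77 for collagen-binding genes. The alpha rows below these ranged from 0.347 TPM for itgae.L to 4.83 TPM for itga3.L among those detected. Of the 22 alpha rows, itga11.S and itga10.L were not detected in all libraries.

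**Figure D2:**
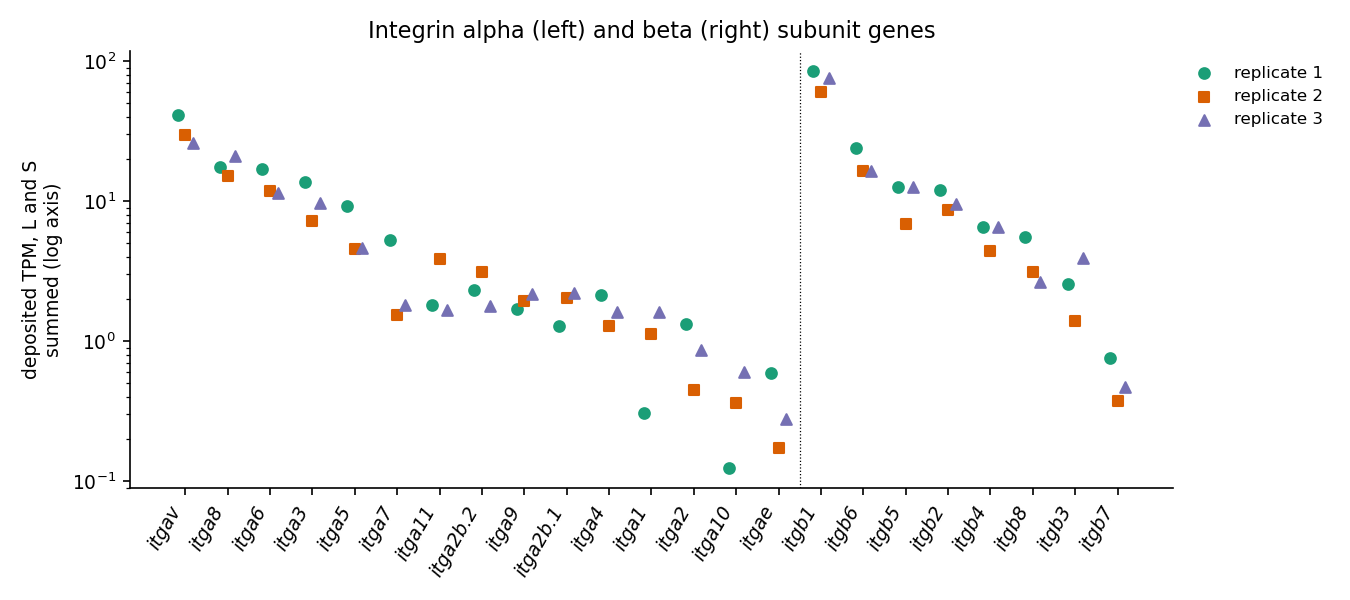
Deposited TPM of each integrin alpha gene (left of the dotted line) and beta gene (right), L and S summed, in each library on a log axis, ordered by mean. The points of itgb1 lie at 85.5, 60.5 and 76.0 TPM, above all other subunits in each library.

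A further 4 rows carry names that match the rule without being integrin subunits or lysyl oxidases. They are itgbl1.L at 7.86 ± 5.40 and itgbl1.S at 1.04 ± 0.339 TPM, a secreted protein with integrin-like repeats, loxhd1.L at 5.65 ± 1.17 TPM, a protein of hair cells in mammals, and itgb1bp2.L at 0.676 ± 0.236 TPM, a muscle protein that binds beta 1 (SD, n = 3). They summed to 15.2 ± 6.46 TPM and were kept as a class of their own.

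Chains that assemble together or stand in for each other were compared within each library, as log2 ratios of TPM with L and S summed and 0.1 TPM added. The type IV collagen pairs were steady. The gene col4a1 exceeded col4a2 by 0.92 ± 0.22 on the log2 scale (SD, n = 3), and col4a5 exceeded col4a6 by 0.999 ± 0.220. The beta chain gene lamb1 stood 2.99 below the gamma chain gene lamc1 on the same scale, with log2 ratios of -2.995, -2.90 and -3.06 in replicates 1, 2 and 3. The ratio of itgb1 to the sum of the other beta genes was equally steady at 0.50 ± 0.07. It was -0.44 when only the more abundant itgb1 copy was counted but all copies of the other beta genes were kept. The 2 sides of that ratio were therefore treated unequally.

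Most other ratios varied more between libraries. The ratio col1a1 over col1a2 averaged -0.33 ± 0.36 (SD, n = 3) and was above 0 in 1 library, while col6a1 over col6a2 was -1.37 ± 0.34 and below 0 in all 3. The ratio col5a1 over col5a2 was 0.40 ± 0.40, lamb1 over lamb2 0.55 ± 0.61 and itga6 over itga3 0.41 ± 0.26. Wider still were fbn1 over fbn2 at 1.76 ± 0.80 and thbs1 over thbs2 at 2.82 ± 1.41. The ratio nid1 over nid2 was -1.88, 0.70 and 1.67 in replicates 1, 2 and 3, so that its mean of 0.16 was far inside its SD of 1.83. It was -0.11 without replicate 2 and -0.59 without replicate 3. Of the 12 ratios computed, 8 had the same sign in all 3 libraries, each at p = 0.25 in the two-sided sign-flip test (an exact permutation test, for which 0.25 is the smallest value with 3 libraries), and an adjusted p of 0.375 over the 12, so none could pass 0.05.

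**Figure D3:**
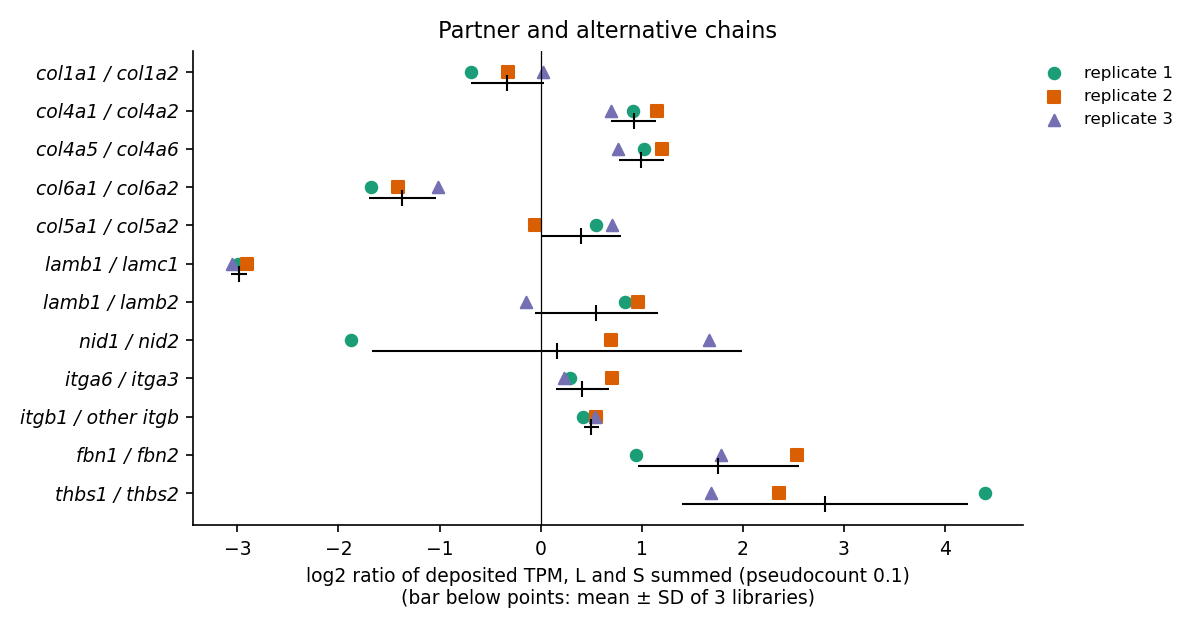
Log2 ratio of deposited TPM between partner or alternative chains (L and S summed, 0.1 TPM added) in each of 3 libraries, with the mean and SD as a bar below the points. The lamb1 over lamc1 points fall between -3.06 and -2.90, whereas nid1 over nid2 spans -1.88 to 1.67.

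Some of these partners also lie beside each other in the genome. By gene order in the NCBI table of the Xenopus_laevis_v10.1 assembly, 9 pairs of members are direct neighbours, among them col4a1.L with col4a2.L, col4a5.L with col4a6.L, col6a1 with col6a2 on both subgenomes and col3a1 with col5a2 on both. Neighbours did not always share their high library on CPM. Both col6a1 and col6a2 were highest in replicate 3 on both subgenomes. In contrast, col3a1.L was highest in replicate 3 and its neighbour col5a2.L in replicate 2, while col3a1.S was highest in replicate 2 and col5a2.S in replicate 3.

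The homeologs of 54 genes could be compared, using counts per base of deposited length with the library as a block, in edgeR's quasi-likelihood test adjusted over all 6627 tested pairs. Of the 54 pairs, 33 were called different (61.1%), the same share as among all pairs (61.1%). The L copy was higher in 23 (42.6%), against 34.4% of all pairs, and the S copy was higher in 10 (18.5%), against 26.6%. On the log2 scale the members' ratios of L to S had a median of 0.98, and those of all pairs 0.15. Called and over 4 fold apart were 15 pairs (27.8%), against 21.1% of all pairs. Leaving out replicate 2 lowered the number with L higher to 15 of 54 members, against 1870 of all 6706 pairs tested. These shares were nearly equal, so the larger share of L among members was not seen without replicate 2. Without replicate 1 the numbers were 20 of 54 and 2017 of 6721, and 18 of 54 and 1848 of 6689 without replicate 3. Of the 33 calls, 22 remained without replicate 2, and 27 and 23 without replicates 1 and 3. In all 10 alternative settings together 17 of the 33 calls held, 12 with L higher and 5 with S higher. The matching share over all pairs is not given here, so 17 of 33 cannot be set against it. How the authors' counting treated reads that match both copies is not given in the sources used here, so ratios of near-identical copies are uncertain.

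**Figure D4:**
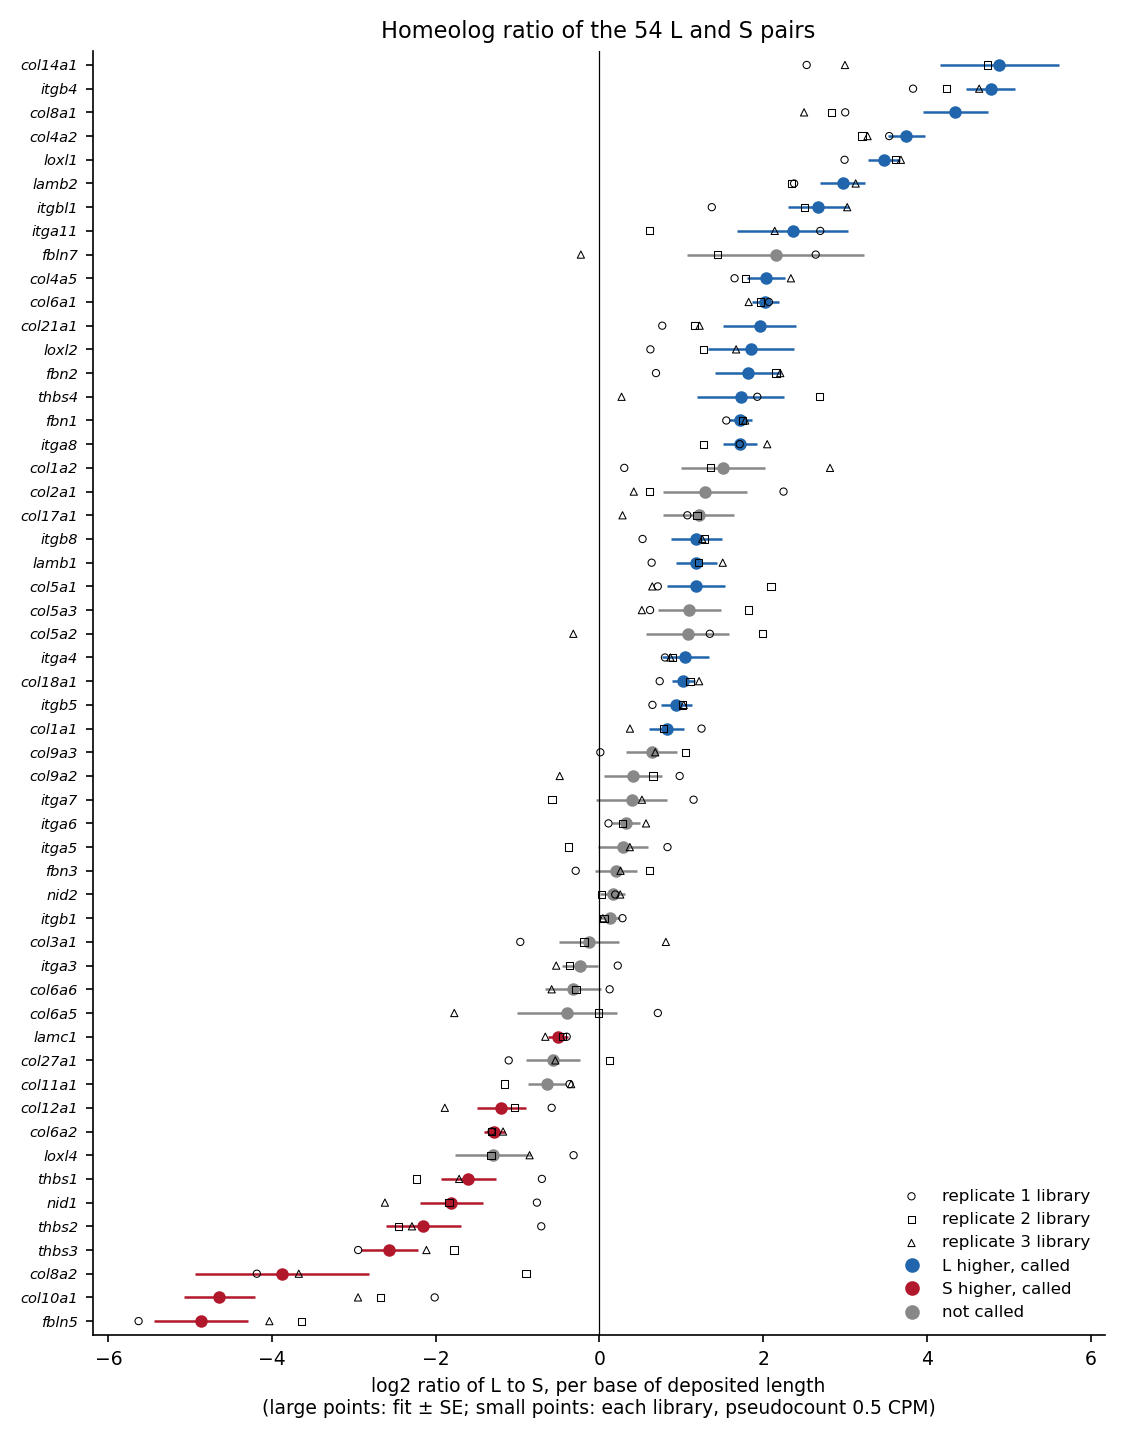
Log2 ratio of L to S per base of deposited length for the 54 member pairs, as the edgeR estimate with its SE (large points, blue for L higher, red for S higher, grey where not called) and the ratio in each library with 0.5 CPM added (small points, which lie nearer 0 for pairs with a low copy). The estimates run from 4.89 for col14a1 to -4.87 for fbln5.

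The widest ratios towards L were in collagens and an integrin. For col14a1, a collagen of fibril surfaces, the L copy had 1.07, 3.16 and 0.890 TPM and the S copy 0.1003, 0.0310 and 0.0300 TPM, a log2 ratio of 4.89 (SE 0.73, edgeR adjusted p = 0.00354). The estimate was 5.77 without replicate 1 and 4.06 without replicate 2. For itgb4, the L copy had 6.22, 4.25 and 6.32 TPM and the S copy 0.342, 0.139 and 0.170 TPM, a 27.4-fold difference (log2 4.78, SE 0.30, edgeR adjusted p = 0.000507). In neither pair did the copies overlap, and the S copy of col14a1 was not detected in all libraries.

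For loxl1 the L copy was 11.1-fold higher, with a log2 ratio of 3.48 (SE 0.20, edgeR adjusted p = 0.000473), so the enzyme's transcripts came mostly from the L subgenome. Type IV collagen leaned the same way. The L copy of col4a2, at 4.09, 3.15 and 4.21 TPM, stood above the S copy, at 0.251, 0.254 and 0.350 TPM, by a log2 ratio of 3.75 (SE 0.22, edgeR adjusted p = 0.000498). For col4a5 the ratio was 2.03 (SE 0.24). Other pairs led by L were col8a1 at 4.35, lamb2 at 2.97, itgbl1 at 2.67 and itga11 at 2.36 on the log2 scale. The S copies of col8a1 and itga11 were not detected in all libraries. The itga11 pair lost its call without replicate 1 (log2 1.65) and without replicate 3 (log2 2.13), and was at 3.24 without replicate 2.

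The S copy was higher in fbln5, thrombospondins and a few collagens. For fbln5 the L copy had 0.514, 0.972 and 2.50 TPM and the S copy 46.4, 16.5 and 46.8 TPM, a log2 ratio of -4.87 (SE 0.58, edgeR adjusted p = 0.00179), or -4.16 without replicate 1. The short-chain collagen col10a1, known from hypertrophic cartilage, had a ratio of -4.64 (SE 0.44) from an L copy that was not detected in all libraries. The call of col8a2, at -3.88 (SE 1.06, edgeR adjusted p = 0.0263), was lost without replicate 1 (-2.94) and without replicate 3 (-3.12). Its ratio was -5.18 without replicate 2, and its L copy was also not detected in all libraries. Of the 4 thrombospondin pairs, 3 were called with S higher, thbs3 at -2.57, thbs2 at -2.15 and thbs1 at -1.60, and thbs4 was called with L higher at 1.72. The thbs2 call was lost without replicate 2 (-1.78). The thbs1 ratio was -2.87 without correction for the unequal gene lengths. The thbs4 call was lost without replicate 1 (1.54), without replicate 2 (1.15) and without the block (1.37), and its ratio was 2.43 without replicate 3.

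Chains that work together did not share a leading copy in 2 cases. In type VI collagen, col6a1 was called with L higher at 2.03 (SE 0.16) and its partner col6a2 with S higher at -1.29 (SE 0.13), and per library the ratios were 2.07, 1.97 and 1.82 for col6a1 and -1.32, -1.32 and -1.18 for col6a2. Among laminins, lamb1 was called with L higher at 1.18 (SE 0.25), a call that was lost without replicate 2 (1.13) and without replicate 3 (0.97). Its partner lamc1 was called with S higher at -0.51 (SE 0.12, edgeR adjusted p = 0.0186), which likewise failed without replicate 1 (-0.56) and without replicate 3 (-0.43). Among the nidogens, nid1 was called with S higher at -1.81 (SE 0.39) and lost that call without replicate 2 (-1.76), and nid2, at 0.16 (SE 0.15), was not called. The pairs fbn1 at 1.72 and col18a1 at 1.02 were called with L higher.

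Several pairs with both copies among the top 5 rows of their class were not called, while others, such as col18a1 and lamc1, were. The itgb1 copies had a ratio of 0.13 (SE 0.12, edgeR adjusted p = 0.392), and the sign turned to -0.11 when gene length was left out. For itga6 the ratio was 0.33 (SE 0.17), for fbn3 0.20 (SE 0.26) and for col3a1 -0.12 (SE 0.37). The col3a1 pair hid opposite libraries, with -0.97 in replicate 1, -0.19 in replicate 2 and 0.81 in replicate 3. The col1a2 pair, at 1.51 (SE 0.51, edgeR adjusted p = 0.0507), missed the threshold and ranged over 0.30, 1.36 and 2.82 in replicates 1, 2 and 3. It passed with DESeq2 (adjusted p = 0.00131), with limma, without the filter on low counts, without the block and without replicate 1 (2.13), and it did not pass without replicate 2 (1.59) or without replicate 3 (0.85). The partner col1a1 was called with L higher at 0.82 (SE 0.22), a call lost without replicate 1 (0.59), without replicate 2 (0.83) and without the block (0.64). Of the 9 fibrillar pairs, 2 were called (22.2%, against 61.1% of all pairs), col1a1 and col5a1, both with L higher, and both calls were lost without the block. Of the integrin pairs, 3 of 7 alpha (42.9%) and 3 of 4 beta pairs (75%) were called with L higher, against 34.4% of all pairs, and none with S higher, against 26.6%. Of these 6 calls, those of itga8 and itgb4 held in all 10 alternatives, while itga4, itga11, itgb5 and itgb8 each lost theirs when a replicate was left out.

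Library differences of 2 fold or more made up a larger share of the members than of all rows. The highest CPM was at least 2 times the lowest in 38 of 127 detected members (29.9%), against 16.5% of all detected rows, on CPM with 0.5 added. Among rows with a mean of at least 10 CPM, a limit chosen after the data were seen, it was 16 of 62 members (25.8%), against 10.5% of all rows. With only a pair of libraries compared, the count was 16 of 130 members without replicate 1 (12.3%, against 7.61% of all rows), 26 of 128 without replicate 2 (20.3%, against 7.55%) and 22 of 128 without replicate 3 (17.2%, against 10.3%). With 1 library per processing date, date and library cannot be told apart and no test of a difference between libraries is possible.

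Few of the wide members were highest in replicate 2. Of the 38, 21 were highest in replicate 3, 15 in replicate 1 and 2 in replicate 2 (1.57% of the detected members, against 5.96% of all rows). The lowest library was replicate 2 in 17 of the 38, 13.4% of the detected members against 5.95% of all rows. Over all 127, replicate 3 was the highest library for 51 (40.2%, against 28.6% of all rows), replicate 1 for 49 (38.6%, against 35.6%) and replicate 2 for 27 (21.3%, against 35.8%). On deposited TPM the counts in that order were 44 (34.6%, against 21.6% of all rows), 62 (48.8%, against 50.03%) and 21 (16.5%, against 28.3%). The TPM scaling shifts replicate 1 upwards by 0.18 on the log2 scale relative to CPM. For this reason the other counts of rows by highest or lowest library used CPM. Levels and sums that the text gives in TPM for each library carry this shift.

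A first set was high in replicate 3 and low in replicate 1. It held 29 members (22.8%, against 12.8% of all rows). Of the 29, 14 were at least 2 fold apart, or 11.0% of the detected members, against 2.74% of all rows. The widest was nid1.S at 8.43, 30.03 and 62.0 CPM in replicates 1, 2 and 3, a 6.99-fold range with 0.5 CPM added. Next came thbs2.S at 1.82, 9.22 and 12.5 CPM and itgbl1.L at 2.96, 11.9 and 18.8 CPM. The type I collagen row col1a1.S had 9.18, 18.01 and 44.0 CPM, and the collagen-binding integrin itga1.S 0.955, 3.96 and 5.66 CPM. Outside this set, the type I row col1a2.S had 21.5, 16.0 and 11.2 CPM, highest in replicate 1. A further 22 members (17.3%, against 15.8% of all rows) were highest in replicate 3 and lowest in replicate 2. Of the 22, 7 were at least 2 fold apart, or 5.51% of the detected members, against 2.83% of all rows. Among these, thbs4.S had 4.95, 4.13 and 19.2 CPM, high in replicate 3 alone.

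Smooth muscle and peritubular myoid markers were highest in the same library. All 17 rows of the 9 matched genes of that list were detected and highest in replicate 3, against 28.6% of all detected rows. Of the 17, 15 were at least 2 fold apart, against 16.5% of all detected rows, and none of the matched rows was at 0. Their summed level was 416, 766 and 1876 TPM in replicates 1, 2 and 3. The smooth muscle actin row acta2.L had 18.6, 94.8 and 327 CPM and tagln.L 11.1, 56.6 and 169 CPM. Leydig markers summed to 605, 852 and 1537 TPM, with 6 of 8 rows highest in replicate 3, and fibroblast markers to 14.2, 18.5 and 28.03 TPM, with 4 of 7 detected rows highest there. Leukocyte markers summed to 81.3, 60.1 and 236 TPM, with 7 of 8 detected rows highest in replicate 3. The part of these cell types in the members' values was not tested.

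A second set was high in replicate 1. Of these, 25 members (19.7%, against 22% of all rows) were lowest in replicate 2. At least 2 fold apart were 10 of the 25, or 7.87% of the detected members, against 3.12% of all rows. The other 24 of the set (18.9%, against 13.6%) were lowest in replicate 3. At least 2 fold apart were 5 of the 24, or 3.94% of the detected members, against 1.85% of all rows. The lowest-in-replicate-2 rows included fbn2.S at 13.9, 2.14 and 4.09 CPM and the laminin-binding subunit itga7.L at 12.03, 2.19 and 3.99 CPM in replicates 1, 2 and 3. Among those lowest in replicate 3, lama5.L had 183, 77.8 and 72.1 CPM, and nid2.S had 28.7, 14.4 and 12.7 CPM. The other nidogen 2 copy, nid2.L, had 35.0, 15.6 and 16.1 CPM. Of the integrin rows, 12 of 20 detected alpha (60%) and 8 of 12 beta rows (66.7%) were highest in replicate 1, against 35.6% of all detected rows. Sertoli markers summed to 1149, 842 and 1240 TPM and endothelial markers to 50.7, 39.2 and 46.5 TPM in replicates 1, 2 and 3. On CPM, 10 of the 15 Sertoli rows were highest in replicate 3 and 5 in replicate 1. Of the 11 endothelial rows, 6 were highest in replicate 3, 4 in replicate 1 and 1 in replicate 2. Among all detected rows, 28.6% were highest in replicate 3. The part of these cell types in the members' values was not tested.

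Other members hardly differed between libraries. With 0.5 CPM added, which narrows the range of low rows most, the narrowest were loxl2.L at 1.82, 1.85 and 1.94 CPM and col4a1.L at 36.2, 38.1 and 36.7 CPM. The rows fbn3.S, fbn1.S, col4a5.L, col17a1.L (a hemidesmosome collagen), lamb1.L and lamc1.S completed the 8 narrowest, and each stayed within 1.11 fold on that scale. Other chains of the same classes ranged more widely, such as fbn2.S at 5.47 fold and lama5.L at 2.53 fold on that scale. The laminin gamma chain lamc1.S had 85.9, 78.5 and 86.9 CPM in libraries where nid1.S, whose protein binds that chain, spanned a 6.99-fold range with 0.5 CPM added.

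**Figure D5:**
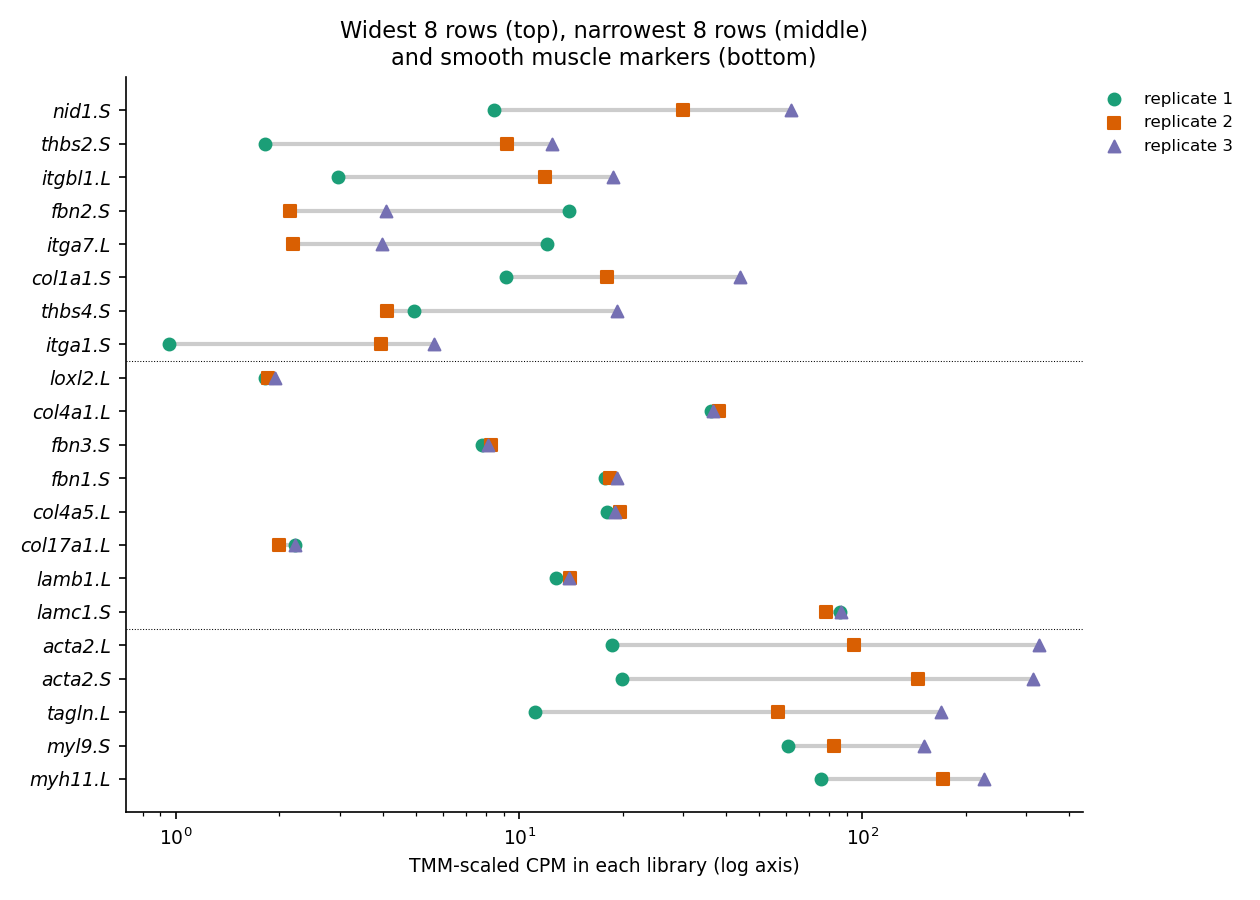
TMM-scaled CPM (log axis) in each of 3 libraries for the 8 members with the widest range between libraries, the 8 with the narrowest, and 5 smooth muscle marker rows. Of the wide members, nid1.S, thbs2.S, itgbl1.L, col1a1.S and itga1.S share with acta2.L the order of replicates 3, 2 and 1 from high to low, and fbn2.S and itga7.L are highest in replicate 1.

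Genes that fold, process or accompany collagen summed to more TPM than the members, from fewer rows. Of 52 genes in the matrix partner list, 44 matched, giving 71 rows of which 63 were detected, where 81.6% of rows with a gene name were. The list summed to 1436, 1202 and 1312 TPM. The highest were protein disulfide isomerase p4hb, the beta subunit of collagen prolyl hydroxylase, with p4hb.L at 198 ± 7.81 and p4hb.S at 145 ± 12 TPM (SD, n = 3). The cyclophilin ppib, which acts in collagen folding, had 145 ± 37.9 TPM for ppib.L and 116 ± 21.5 TPM for ppib.S. The matricellular sparc.L was at 124 ± 7.09 and the collagen chaperone fkbp10.L at 65.4 ± 11.1 TPM. A range of at least 2 fold between libraries was found in 18 of the 63 detected rows (28.6%, against 16.5% of all detected rows). Of their 27 homeolog pairs, 7 were called with L higher (25.9%, against 34.4% of all pairs) and 9 with S higher (33.3%, against 26.6%). The pair sparc was at a log2 ratio of 1.62 (SE 0.21, edgeR adjusted p = 0.00232), fkbp10 at 2.06 (SE 0.14, edgeR adjusted p = 0.000532) and p4hb at 0.46 (SE 0.10, edgeR adjusted p = 0.0108). The p4hb call was lost without replicate 1 (0.44) and without replicate 3 (0.42). In contrast, lox, the founding lysyl oxidase, was at -4.05 (SE 0.41, edgeR adjusted p = 0.00111) with S higher, against L higher for loxl1.

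Genes of proteins that couple integrins to the cytoskeleton were nearly all detected. Of 32 genes in the integrin adhesion list, 26 matched, giving 45 rows of which 44 were detected. Among rows with a gene name 81.6% were detected, and among all rows 66.7%. The list summed to 464, 376 and 426 TPM. The talin row tln2.S was at 28.7 ± 6.36, the kindlin rows fermt2.L at 27.8 ± 7.00 and fermt2.S at 25.3 ± 9.37, and the integrin-linked kinase row ilk.S at 25.7 ± 4.71 TPM (SD, n = 3). The actin cross-linker actn1.L was at 22.9 ± 5.93 and the adaptor lims1.S at 21.1 ± 4.26 TPM. A difference of at least 2 fold between libraries was found in 5 of the 44 rows (11.4%, against 16.5% of all detected rows). Of the 19 homeolog pairs, 3 were called with L higher (15.8%, against 34.4% of all pairs) and 4 with S higher (21.1%, against 26.6%).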

How the data were processed

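Whole-number counts per gene were deposited by the authors for 3 testis libraries, per the file headers; the submitters' processing notes name HISAT2 and featureCounts. The sources used here do not give the strand setting or the treatment of multi-mapping reads. The authors also deposited TPM and gene length, per the file headers; 90.9% of all lengths are multiples of 3, so they were taken as coding length, with no check against annotation. The build is not spelled out, so no coordinates are given. All 140 member rows matched the NCBI table of Xenopus_laevis_v10.1, used for names and gene order.

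CPM used edgeR 4.0.16 with TMM factors of 1.07, 0.956 and 0.979. Homeologs (L plus S of at least 1 CPM in all libraries) were tested with edgeR's quasi-likelihood test on 6 columns, with the library as a block and library size times length as offset, Benjamini-Hochberg adjustment and a threshold of 0.05. L and S of a library come from 1 RNA, which is where the block comes from. The SE is the log2 ratio divided by the square root of F, an approximation. The test was tried on simulated data. Alternatives used DESeq2 1.42.0 and limma 3.58.1. Blank gene names do not occur, while 12269 rows hold locus identifiers and stayed in library sizes and tests.

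Members and lists were chosen with earlier results of these data known. Named are the top 5 rows of each class, the widest 12 called pairs, pairs with both copies in the top rows, the 8 widest and narrowest members between libraries and the top 6 rows of 2 partner lists. Other genes named (undetected rows, integrin groups, neighbours, class extremes and further pairs) were picked after their values were seen. The values of 1 member row are not reported here.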

Additional observations from a re-analysis of the deposited data

How the results depend on the processing

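Of the 140 members 127 were detected, and the other 13 missed the limit of 0.5 CPM in 1 or more libraries. These 13 rows had over 3 counts in every library and were not all the lowest by mean. Low counts limit ratios to a low copy, while the number of libraries, 3 in 1 group, limits every comparison. Under the 10 alternative settings for homeologs, the number of member pairs with L higher, 23 as reported, was 15 without replicate 2 and ranged from 15 to 20 with a replicate left out. Over all pairs that number was 2283 in the main fit, 1870 without replicate 2, and from 1848 to 2017 with a replicate left out. Without the replicate block, L was higher in 20 and S in 12 member pairs, 27 of the 33 calls remained, and 3756 of all pairs were called against 4049; the calls of itga11 (1.53), thbs4 (1.37), col1a1 (0.64), itgb8 and col5a1 were among the 6 lost, col1a2 was among 5 gained, and the block changed no other call named in the text. DESeq2 gave 28 and 11 and limma 26 and 11, with all 33 calls kept. Over all 6627 pairs, L was higher in 2436 with DESeq2 and in 2369 with limma. Uncalled ratios changed sign in col3a1 (0.021 without the block, 0.32 without replicate 1), fbn3 (-0.020 to 0.46 with a replicate left out, -0.020 being without replicate 2), itgb1 (-0.0086 with L and S scaled separately, -0.11 without length), itga5 (-0.0052) and itga7 (-0.042), both without replicate 1, and col6a5 (0.38 without replicate 3). The ratio of itgb1 to the other beta genes was -0.44 with the more abundant itgb1 copy alone against all copies of the others, an unequal comparison. The ratio nid1 over nid2 was -0.11 without replicate 2 and -0.59 without replicate 3, with 1.18 without replicate 1. Members at least 2 fold apart numbered 38, ranged from 16 to 26 with a replicate left out, which compares fewer libraries, and were 16 at a mean of at least 10 CPM, chosen after seeing the data. For the sign changes and for the lower count without replicate 2 the cause was not tested. Without replicate 3, fbln7 (3.43) and col5a2 (1.75) passed the threshold. In the alternatives run, class sums moved by less than the SD between libraries, the other 10 chain ratios kept their sign, and the number of detected members lay between 114 and 139.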
